A study of Mus musculus with 2 samples.

Results

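The integrated stress response was followed through 10 genes in stromal cells of the fat that surrounds the mouse aorta, the perivascular adipose tissue. They were the transcription factor genes Atf4, Atf3, Atf5 and Ddit3, the feedback genes Trib3 and Ppp1r15a, and the stress targets Chac1, Sesn2, Asns and Gdf15. All 10 were found by symbol in the gene lists of both libraries, which hold 31053 genes each. The series compared single-cell RNA libraries of perivascular stromal cells from young and old wild-type (WT) mice, with 1 library of each, and its title links cells of the SM22α lineage to aneurysm of the abdominal aorta. Dissected fat from both ages was digested with collagenase, strained and freed of red blood cells before droplet capture. Neither library is labelled with a treatment other than age. The ages in months, the number and sex of the mice, whether animals were pooled and which stretch of the aorta was taken are facts not given in the sources used here. A single library per age allows no test across animals. Every interval below is a 95% interval that covers counting error only, and no old to young difference has a replicate check.

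In the integrated stress response, kinases that sense amino acid shortage, unfolded protein, viral RNA or heme deficiency phosphorylate the translation initiation factor eIF2. General protein synthesis then slows while translation of ATF4 increases, so that ATF4 protein is controlled largely downstream of its mRNA, which is all that these libraries measure. ATF4 pairs with C/EBP family proteins on composite DNA elements and switches on genes for amino acid supply, redox balance and, through CHOP, cell death. GADD34, the product of Ppp1r15a, brings a phosphatase to eIF2 and closes the loop.

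The genes and the DNA at their starts were as follows, in GRCm38 coordinates of GENCODE vM21. Atf4 (ENSMUSG00000042406, chr15:80255184-80257541, plus strand) encodes the central factor. Atf3 (ENSMUSG00000026628, chr1:191170296-191218039, minus strand) encodes a bZIP factor that is also an immediate early gene. Atf5 (ENSMUSG00000038539, chr7:44812256-44816658, minus strand) encodes a bZIP factor related to ATF4. Ddit3 (ENSMUSG00000025408, chr10:127290774-127296288, plus strand) encodes CHOP. Trib3 (ENSMUSG00000032715, chr2:152337422-152344032, minus strand) encodes a pseudokinase that restrains ATF4 and CHOP. Ppp1r15a (ENSMUSG00000040435, chr7:45522916-45526268, minus strand) encodes GADD34. Chac1 (ENSMUSG00000027313, chr2:119351229-119354381, plus strand) encodes an enzyme that degrades glutathione. Sesn2 (ENSMUSG00000028893, chr4:132492032-132510501, minus strand) encodes sestrin 2, a leucine-sensing restraint on mTORC1 that p53 also induces. Asns (ENSMUSG00000029752, chr6:7675169-7693254, minus strand) encodes asparagine synthetase. Gdf15 (ENSMUSG00000038508, chr8:70629393-70632456, minus strand) encodes a secreted stress cytokine that is a target of both the ATF4 pathway and p53. Exons of Atf5 overlap Il4i1 and Nup62 on the other strand, those of Ppp1r15a overlap Tulp2, and those of Ddit3 overlap Gm4189 and Mars on the other strand and a further Ddit3 entry on its own. Use of strand in counting is not given in the sources used here, so the counts of these 3 genes are less certain than those of the others.

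Promoter windows from 250 bases before to 50 bases after each RefSeq start (GRCm38.p6, 12 windows for the 10 genes) were searched on both strands for short motifs. They are shown because the composite element TGATGNAA, in which N is any base, is the form that ATF4 with a C/EBP partner is known to bind. It was present in 4 of the 10 genes and in 3.97% of all 32851 RefSeq windows. The stretches are written 5′ to 3′ on the gene's strand, with the motif in capitals, and 3 of the 4 hold it as its reverse complement:
Atf3: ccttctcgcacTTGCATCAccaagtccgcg
Chac1: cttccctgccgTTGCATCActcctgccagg
Trib3: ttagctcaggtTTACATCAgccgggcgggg
Asns: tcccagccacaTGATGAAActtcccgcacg
These stretches lie at chr1:191183425-191183454 (minus strand) for Atf3, chr2:119351038-119351067 (plus strand) for Chac1, chr2:152344028-152344057 (minus strand) for Trib3 and chr6:7693214-7693243 (minus strand) for Asns. Positions count from RefSeq starts, which need not be the starts of the gene spans given above. The stretches of Atf3 and Asns lie inside those spans, and that of Trib3 reaches beyond its own. The motif lay upstream of the RefSeq start in Atf3 (-110 to -103), Chac1 (-193 to -186) and Asns (-23 to -16). In Trib3 it lay downstream of that start (15 to 22). Ppp1r15a instead held the palindrome TGACGTCA, the cyclic AMP response element, which was present in 1.79% of all windows. It is shown as the one member with the full palindrome, at chr7:45526269-45526298 (minus strand) and -12 to -5 from the start:
Ppp1r15a: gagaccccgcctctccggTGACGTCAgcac
The element TGACGNAA was found in Atf3 and Chac1 (1.59% of all windows) and the AP-1 element TGANTCA in Ddit3 (7.81%). The longer form TGATGNAAT (0.965% of all windows) and the ER stress element (0.119%) were in no member window. Some of these patterns overlap each other in sequence. A match describes letters only, and a missing match says only that the letters are not in these windows.

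The young library held 13104 barcodes and 130398999 UMIs (unique molecular identifiers, each counting 1 captured RNA molecule), and the old library 14636 barcodes and 147166475 UMIs. Cells were placed in classes by how many marker genes they held. Mesenchymal cells, gated on Pdgfra, Pdgfrb, Dcn, Lum and several collagen genes, numbered 11687 young and 10895 old, at medians of 9275 and 9453 UMIs. The libraries differed in the other cells: blood endothelial cells numbered 33 young and 994 old, mesothelial cells 323 and 53, Schwann cells 53 and 64, macrophages 1 and 82, and adipocyte-marker cells 2 and 111. Barcodes with over 10% mitochondrial UMIs, which were left out, were 1.83% (young) and 5.78% (old) of all barcodes. Both libraries held 275 barcode sequences in common. Mesenchymal cells held the summed 12 mesenchymal markers at 8092 CPM (UMIs per 1000000 UMIs of the class) when young and at 6886 CPM when old. In these same cells the summed endothelial markers stood at 28.7 and 47.1 CPM and the macrophage markers at 15.4 and 47.8 CPM, all 10 endothelial markers detected in both and 1 macrophage marker at 0 in the young library. Their part in the differences below was not tested. The old blood endothelial cells in turn held the mesenchymal markers at 1333 CPM. Schwann cells held them at 3871 CPM (young) and 3909 CPM (old), and mesothelial cells at 5472 and 4463 CPM.

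Of the 10 genes, 4 stood at least 1.5-fold higher in the old mesenchymal cells and 0 at least 1.5-fold lower. Among the 15313 genes with at least 20 UMIs, 20% were at least 1.5-fold higher and 12.4% at least 1.5-fold lower. The 4 were Gdf15, Atf3, Ddit3 and Chac1. The median log2(old/young) of the 10 genes was 0.56, against 0.13 for all genes. The 10 genes and the lists used below were chosen with earlier results of these data known. Comparisons with all genes, here and below, are therefore descriptions and not tests of the pathway. Their summed level was 508 CPM among young and 668 CPM among old cells, a log2 difference of 0.39 (0.38 to 0.41).

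Atf4 itself had 19977 UMIs in young and 24865 in old mesenchymal cells, or 166 CPM (164 to 168) and 216 CPM (214 to 219). Its log2 ratio of 0.38 was exceeded by 30.9% of all genes tested. The mRNA of the central factor was thus higher in the old library by less than 1.5-fold. Atf5 went the other way, with 183 CPM among young and 169 CPM among old cells and a log2 ratio of -0.11 (-0.14 to -0.09), though 0.00 with the gate shifted down by 1 marker.

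The other bZIP genes differed more. Atf3 had 331 UMIs in young and 1862 in old mesenchymal cells, or 2.75 CPM (2.46 to 3.07) and 16.2 CPM (15.5 to 16.9), a 5.88-fold difference (log2 2.56, 2.39 to 2.73). Ddit3 had 4939 and 8383 UMIs, or 41.1 CPM (39.9 to 42.2) and 72.9 CPM (71.3 to 74.5), a log2 ratio of 0.83 (0.78 to 0.88). The old library was higher for both, with counting intervals that do not overlap. Of all genes tested, 2.36% had a larger ratio than Atf3 and 12.7% a larger ratio than Ddit3.

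The feedback genes were intermediate. Trib3 stood at 7.40 CPM among young and 10.96 CPM among old cells (log2 0.57, 0.44 to 0.69), just under 1.5-fold. Ppp1r15a stood at 35.9 and 48.9 CPM (log2 0.44, 0.39 to 0.50). Among the targets, Chac1 rested on the fewest molecules, with 532 young and 878 old UMIs, 4.42 and 7.63 CPM and a log2 ratio of 0.79 (0.63 to 0.95). Its ratio fell short of 1.5-fold as a mean over cells (0.54) and with the gate shifted down by 1 marker (0.51). That shift also allows a mesenchymal cell at most 1 marker of another class in place of 2, and it left 7527 young and 5731 old cells. Sesn2 was at 13.8 CPM among young and 20.2 CPM among old cells, with a log2 ratio of 0.55 (0.46 to 0.65). Trib3 passed 1.5-fold with the gate shifted up by 1 marker (0.60) and Sesn2 as a mean over cells (0.61), so that the count of 4 ran from 3 to 5 over the gates. Asns, the amino acid enzyme, was nearly level at 49.8 and 54.8 CPM (log2 0.14, 0.09 to 0.19), close to the median gene, and its ratio was -0.04 as a mean over cells.

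Gdf15 had the largest difference of the 10. It had 534 UMIs in young and 5851 in old mesenchymal cells, or 4.44 CPM (4.07 to 4.83) and 50.9 CPM (49.6 to 52.2), an 11.5-fold difference (log2 3.52, 3.39 to 3.65). Only 1.20% of the genes tested had a larger ratio. Seen per cell, with every cell thinned at random to 3000 UMIs, Gdf15 was detected in 1.14% of young and 10.5% of old mesenchymal cells (3.53% and 25.5% before thinning). Thinning left 11326 young and 10715 old cells and dropped 361 and 180 shallower ones.

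At that equal depth Atf3 was detected in 0.750% of young and 2.85% of old mesenchymal cells (2.64% and 7.58% before thinning), and Ddit3 in 10.7% and 15.4% (29.2% and 36.6%). For Atf4 the shares were 37.7% and 44.2% (72.2% and 77.8%), and for Ppp1r15a 9.85% and 13.1% (28.3% and 34.3%). Sesn2 was detected in 3.80% and 5.72% of the cells (12.4% and 17.7%), Trib3 in 1.91% and 2.56% (6.25% and 8.28%) and Chac1 in 1.28% and 1.86% (4.02% and 6.07%). Shares thus ordered the libraries as the levels did for these 8 genes. For Atf5 the thinned share was lower in the old library, 39.2% against 36.1%, and for Asns the shares of 13.1% and 12.7% had overlapping intervals. No class in these libraries is known to lack the 10 genes, so a background of free RNA could not be set. In the young library 0 of 318 thinned mesothelial and 0 of 51 thinned Schwann cells held Gdf15. It was in only 1.14% of young mesenchymal cells, so these counts of 0 say little about free RNA. In the old library, with 10.5% of mesenchymal cells, it was in 5.77% of mesothelial and 1.85% of Schwann cells. There it was also in 4.02% of endothelial cells, 5.19% of macrophages and 7.62% of adipocyte-marker cells. The part of free RNA in these shares was not tested.

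**Figure D1:**
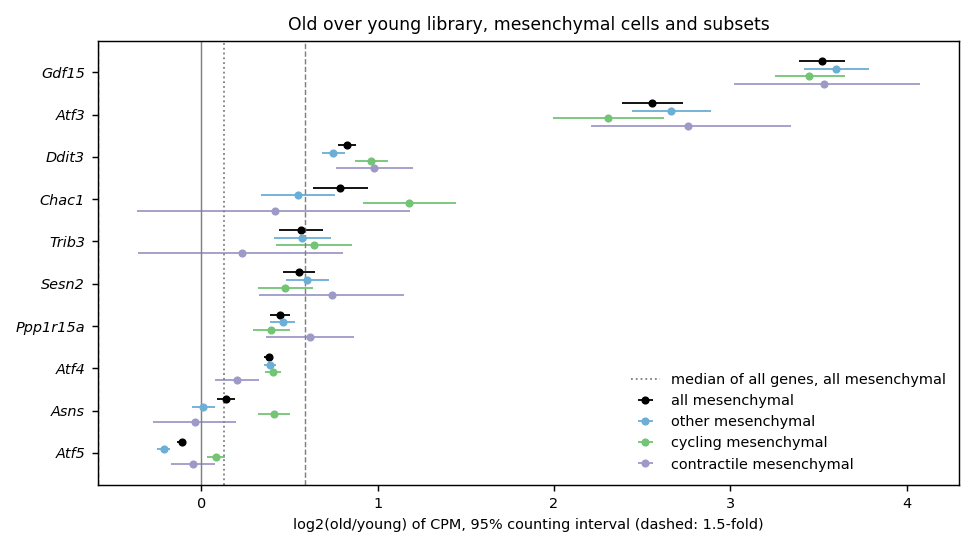
Log2(old/young) of the CPM of each gene in all mesenchymal cells and in the cycling, contractile and other mesenchymal cells, as points with 95% counting intervals on the horizontal axis. The dotted line marks the median of all genes in mesenchymal cells (0.13), the dashed line 1.5-fold, and the solid line no difference. Gdf15 and Atf3 lie beyond the 1.5-fold line in all 4 sets, while Atf4 lies short of it in all 4.

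The differences were then read within subsets of the mesenchymal cells, which were 3050 young and 2640 old cells with cycling markers, 631 and 277 with contractile markers and 7996 and 7864 others. In the old cycling cells 5 of the 10 genes were higher by 1.5-fold or more, as were 17.2% of 13605 genes. In the contractile cells there were 5, where 16.7% of 11069 genes were, and in the other cells 4, where 20.6% of 14608 genes were. None of the 10 was 1.5-fold lower in any of these subsets, where 10.9%, 9.75% and 12.4% of genes were. Gdf15 was 10.9-fold higher in cycling, 11.6-fold in contractile and 12.1-fold in other mesenchymal cells. Atf3 was 4.94-fold, 6.78-fold and 6.33-fold higher. Ddit3 was 1.95-fold, 1.97-fold and 1.68-fold higher. These 3 genes therefore met the 1.5-fold rule in every subset.

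Other members depended on the subset. Chac1 had a log2 ratio of 1.18 (0.92 to 1.45) in cycling cells and 0.55 (0.34 to 0.76) in other mesenchymal cells, 2 intervals that do not overlap, though the difference between the subsets was not tested across animals. Asns had one of 0.41 (0.32 to 0.50) in cycling cells and 0.01 (-0.06 to 0.08) in the others. Atf5 was slightly higher in old cycling cells (0.08, 0.03 to 0.13) and lower in the other old cells (-0.21, -0.25 to -0.18). In contractile cells Chac1 rested on 39 young and 25 old UMIs, and its interval of -0.37 to 1.18 includes no difference. Pericyte-marker cells, 10 young and 114 old, were too few in the young library for a ratio. In the old ones Atf3 stood at 31.8 CPM (22.9 to 42.9) and Gdf15 at 49.2 CPM (37.9 to 62.7).

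The members' levels differed with the mitochondrial share of a cell. In the old library 9 of the 10 genes, all but Sesn2, were highest in the cells with the lowest share. In the young library this held for Atf4, Atf3, Trib3, Ppp1r15a, Chac1 and Asns. How many of all genes were highest in those cells was not counted. Of mesenchymal cells, 1522 young (13.0%) and 3577 old (32.8%) held at most 2% mitochondrial UMIs, a split made after the data had been seen. Their median depths were 9842 and 10821 UMIs, against 9716 and 9302.5 for the 6902 young and 5484 old cells with 2 to 3%. Atf3 stood at 31.1 CPM in the old cells with at most 2% and at 7.14 CPM in those with 2 to 3%, while in the young library it stood at 3.66 and 2.52 CPM. Ddit3 stood at 108 and 52.5 CPM in the same old cells and at 47.7 and 39.6 CPM in the young ones. Trib3 stood at 18.4 and 6.64 CPM in the old cells and at 11.03 and 6.90 CPM in the young ones. The log2(old/young) of Trib3 was 0.74 in the cells with at most 2% and -0.06, -0.27 and -0.24 in the 3 ranges above, up to 10%.

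Asns changed direction along the same axis. It stood at 58.6 CPM in young and 80.9 CPM in old cells with at most 2% (log2 0.47), and at 49.3 and 40.7 CPM in cells with 2 to 3% (log2 -0.28). Chac1 had 7.85 and 12.2 CPM in the cells with at most 2% and 4.05 and 5.44 CPM in those with 2 to 3%. Gdf15 was the exception in size: it stood at 4.08 and 64.6 CPM with at most 2% and at 4.25 and 41.4 CPM with 2 to 3%, and its log2 ratio was 3.16 or more in all 4 ranges. Sesn2, at 14.1 and 19.6 CPM with at most 2% and 13.2 and 21.1 CPM with 2 to 3%, showed no such fall.

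Without the cells with at most 2%, the members that stood at least 1.5-fold higher were 3, namely Gdf15 (log2 3.24), Atf3 (1.45) and Sesn2 (0.59). Of 14885 genes in the same cells, 19.3% were at least 1.5-fold higher and 11.7% at least 1.5-fold lower. Ddit3 (0.37) and Chac1 (0.33) then fell short of 1.5-fold, and Trib3 (-0.09) and Asns (-0.31) turned to lower in the old library. In the cells with at most 2% the summed 28 immediate early and dissociation genes, which respond to tissue digestion among other stimuli, stood at 2381 CPM among young and 4363 CPM among old cells, and in those with 2 to 3% at 2527 and 3860 CPM. Cycling cells were 32.6% and 30.2% of the cells with at most 2%. The part of these genes, of cycling and of depth in the differences was not tested.

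**Figure D2:**
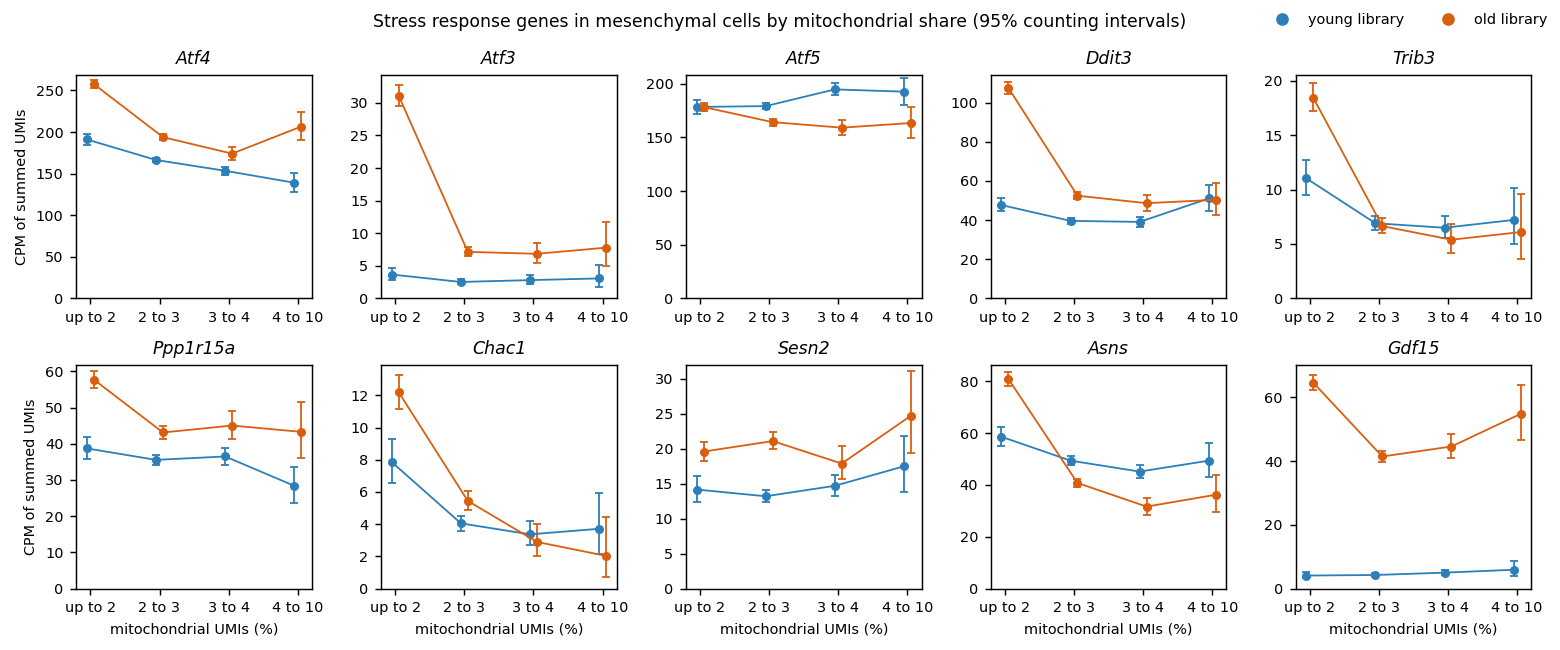
CPM of each gene in young and old mesenchymal cells split by the share of mitochondrial UMIs per cell, in 4 ranges on the horizontal axis, with 95% counting intervals as bars. In the old library Atf3 falls from 31.1 to 7.14 CPM and Ddit3 from 108 to 52.5 CPM between the first and second range, while Gdf15 stays far above the young library in all 4.

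Across cell classes, the members had different patterns. In the old library the 994 blood endothelial cells could be set against the mesenchymal cells, where 16.6% of 14462 genes were at least 1.5-fold higher and 29.1% at least 1.5-fold lower in endothelial cells. Of the members, 2 were higher and 5 lower. Trib3 stood at 28.4 CPM (25.2 to 31.8) in endothelial and 10.96 CPM in mesenchymal cells, 2.59-fold higher. Atf3 stood at 36.3 CPM (32.8 to 40.2) and 16.2 CPM, 2.24-fold higher. Both genes thus had more of their transcripts per UMI in the vessel-lining cells, and in the young library the 33 endothelial cells gave 57.3 CPM (34.0 to 90.6) for Trib3 and 35.0 CPM (17.5 to 62.7) for Atf3.

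The 5 genes that were lower in the endothelial cells included Ddit3, at 19.2 CPM (16.6 to 22.0), 3.80-fold lower than in mesenchymal cells. Atf5 stood at 53.1 CPM, 3.18-fold lower, and Gdf15 at 17.1 CPM (14.7 to 19.8), 2.98-fold lower. Asns was 1.77-fold and Sesn2 1.60-fold lower. Transcripts of CHOP, ATF5 and GDF15 were therefore at a higher level in the mesenchymal cells of the old library. Atf4 did not separate the classes, at 214 CPM (205 to 223) in endothelial and 216 CPM in mesenchymal cells. Ppp1r15a was 1.29-fold higher in endothelial cells, and Chac1 had 65 endothelial UMIs and an interval that includes no difference. The part of the mesenchymal markers found in the endothelial cells, given above, was not tested.

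Schwann cells, the glia of peripheral nerves, had the highest level of Atf3 of all classes with at least 50 cells, on few molecules. It stood at 73.1 CPM in the young library (48.2 to 106, 27 UMIs) and 69.3 CPM in the old (43.9 to 104, 23 UMIs), with intervals that overlap almost fully. At equal depth 17.6% of 51 young and 7.41% of 54 old Schwann cells held Atf3, at 6932 and 4672 UMIs per cell in the median before thinning. Their log2 ratio was -0.08 (-0.94 to 0.78), beside 2.56 in mesenchymal cells, and this gap between the classes was not tested across animals. Ppp1r15a was higher in old Schwann cells, at 48.7 and 93.4 CPM (log2 0.94, 0.06 to 1.86). Of the 6 members with at least 20 UMIs in Schwann cells, 3 were at least 1.5-fold higher (Ppp1r15a, Ddit3 and Atf4) and 1 lower (Asns), where 17.4% and 14.2% of 4422 genes were. Ddit3 rested on 7 young and 14 old UMIs and Asns on 17 and 6. The intervals of both (-0.25 to 2.70 and -2.98 to 0.06) include no difference. With the gate shifted up by 1 marker, 26 young and 35 old Schwann cells were left, and 0 of 3 testable members were higher. The part of the mesenchymal markers found in Schwann and mesothelial cells, given above, was not tested.

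Mesothelial cells, the lining of body cavities, numbered 323 young and 53 old. Of 9 members with at least 20 UMIs there, 1 was at least 1.5-fold higher (Atf3) and 3 lower (Asns, Sesn2 and Trib3), where 15.0% and 18.6% of 9557 genes were. Atf3 stood at 8.59 CPM (5.95 to 12.0) among young and 14.7 CPM (6.34 to 29.0) among old cells, and its interval includes no difference, as do those of the 3 lower genes. Ddit3 was level, at 34.9 CPM in each library. Gdf15 had 1 UMI in young and 8 in old mesothelial cells, 0.253 CPM (0.0064 to 1.41) and 14.7 CPM (6.34 to 29.0), a log2 ratio of 5.86 with an interval of 2.96 to 11.33. Young Schwann cells had 0 UMIs of Gdf15, which allows up to 9.98 CPM by the exact interval, and old ones had 2.

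Macrophages and adipocyte-marker cells were measurable only in the old library. In the 82 macrophages Atf3 stood at 33.9 CPM (19.8 to 54.3), Gdf15 at 29.9 CPM (16.8 to 49.4) and Atf4 at 150 CPM (118 to 188). In the 111 adipocyte-marker cells Ddit3 stood at 50.6 CPM (35.0 to 70.7), Sesn2 at 29.8 CPM (18.2 to 46.0) and Gdf15 at 29.8 CPM (18.2 to 46.0). Chac1 had 0 UMIs in both classes.

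**Figure D3:**
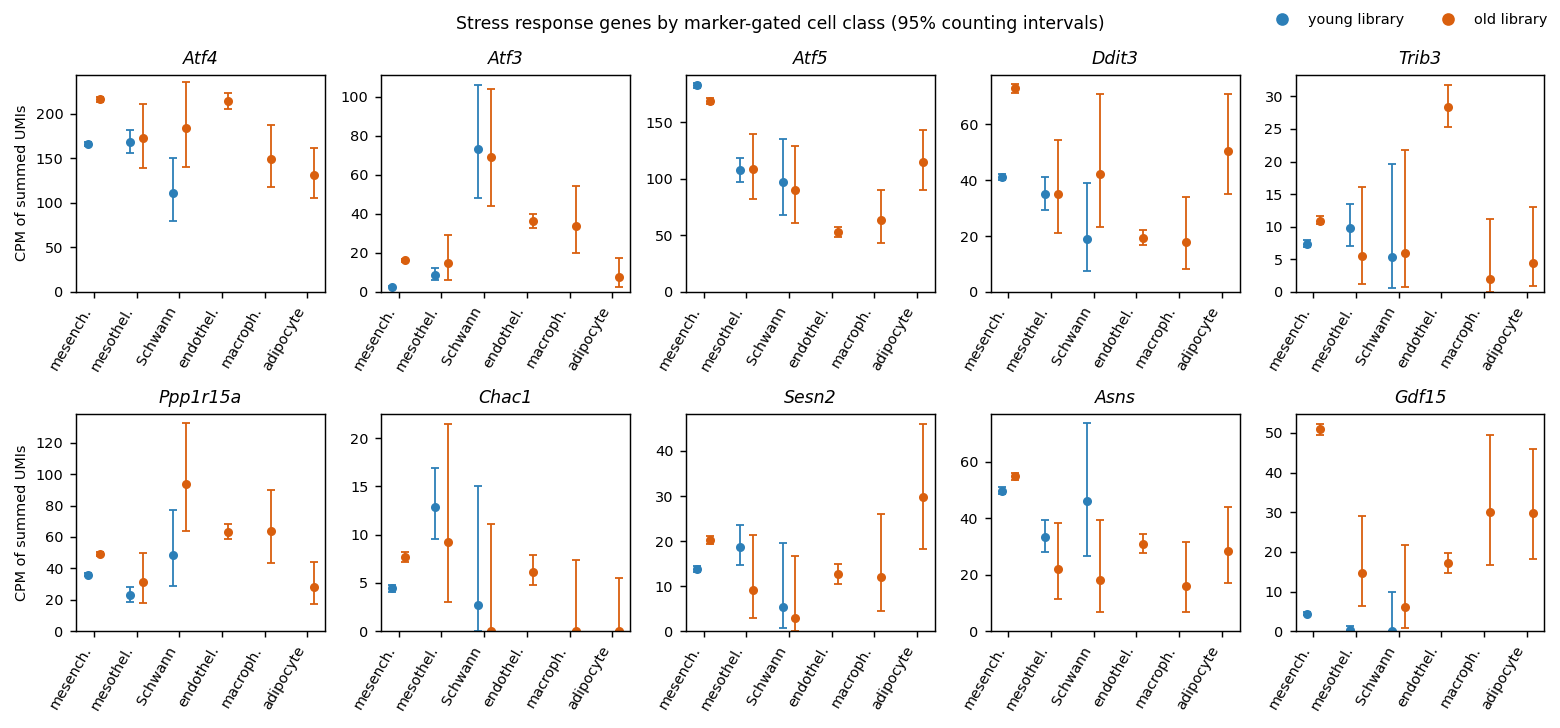
CPM of each gene by cell class, on a separate vertical scale for each gene, with points for the young and old library and 95% counting intervals as bars; classes with fewer than 50 cells in a library are not drawn. Atf3 is highest in Schwann cells and Trib3 in old endothelial cells, while Gdf15 stands at 4.44 CPM in young and 50.9 CPM in old mesenchymal cells.

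Whether the genes were found in the same cells was asked at equal depth, by dividing the number of mesenchymal cells that held both genes of a pair by the number expected from the 2 shares alone. Thinning to 3000 UMIs removes differences in depth between cells, though not differences in cell state or composition that many genes share. In the old library all 45 pairs had at least 5 expected cells, and 19 reached a ratio of 1.5. In the young library 37 pairs could be measured and 5 reached 1.5. Among gene pairs in general with that expectation, 1.86% (old) and 2.08% (young) reached 1.5. This comparison left out genes found in the fewest cells. Atf3 in the young library (0.750% of cells) fell below its limit, and Atf3 with Ppp1r15a (1.79) was 1 of the 5 young pairs. The other members passed the limit in both libraries. The median ratio of the members' pairs was 1.44 in the old and 1.18 in the young library, and 26 of the 37 pairs measured in both were larger in the old. The same count over all gene pairs was not made. Ratios of rare genes scatter more, since they rest on few cells.

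The highest ratios in the old library joined Atf3, Chac1, Trib3 and Ddit3. Atf3 and Chac1 were found together in 28 cells, where 5.66 were expected, a ratio of 4.94 (3.28 to 7.14). Trib3 and Chac1 had a ratio of 4.32 (2.71 to 6.55) and Atf3 and Trib3 one of 3.85 (2.60 to 5.49). Atf3, Trib3 and Chac1 are, with Asns, the genes whose windows held the composite element printed above. Asns had ratios of 1.60 with Atf3, 1.80 with Trib3 and 1.54 with Chac1. Ddit3, whose windows did not hold the element, had 2.49 with Trib3 and 2.32 with Chac1. The part of the element in the pairing was not tested. Atf3 and Ddit3 were found together in 127 old cells, where 47.0 were expected, a ratio of 2.70 (2.25 to 3.22). Atf3 with Ppp1r15a reached 2.58 and Atf3 with Gdf15 2.16. Of the old cells with Atf3, 41.6% also held Ddit3, 33.8% Ppp1r15a and 22.6% Gdf15.

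In the young library 5 cells held both Atf3 and Ddit3, where 9.13 were expected, a ratio of 0.548 with an interval that includes 1 (0.178 to 1.28). Averaged over all possible thinnings of the same cells the young ratio was 1.03 and the old one 2.57. Ddit3 and Trib3, in contrast, were paired in both libraries, with ratios of 2.24 (1.67 to 2.94) in the young and 2.49 (2.03 to 3.01) in the old. Ddit3 and Chac1 had ratios of 1.93 (young) and 2.32 (old), and Trib3 and Asns 1.91 and 1.80. Atf4 and Atf5, the most widely detected genes, were found together about as often as their shares give, with a ratio of 1.03 in the old library.

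**Figure D4:**
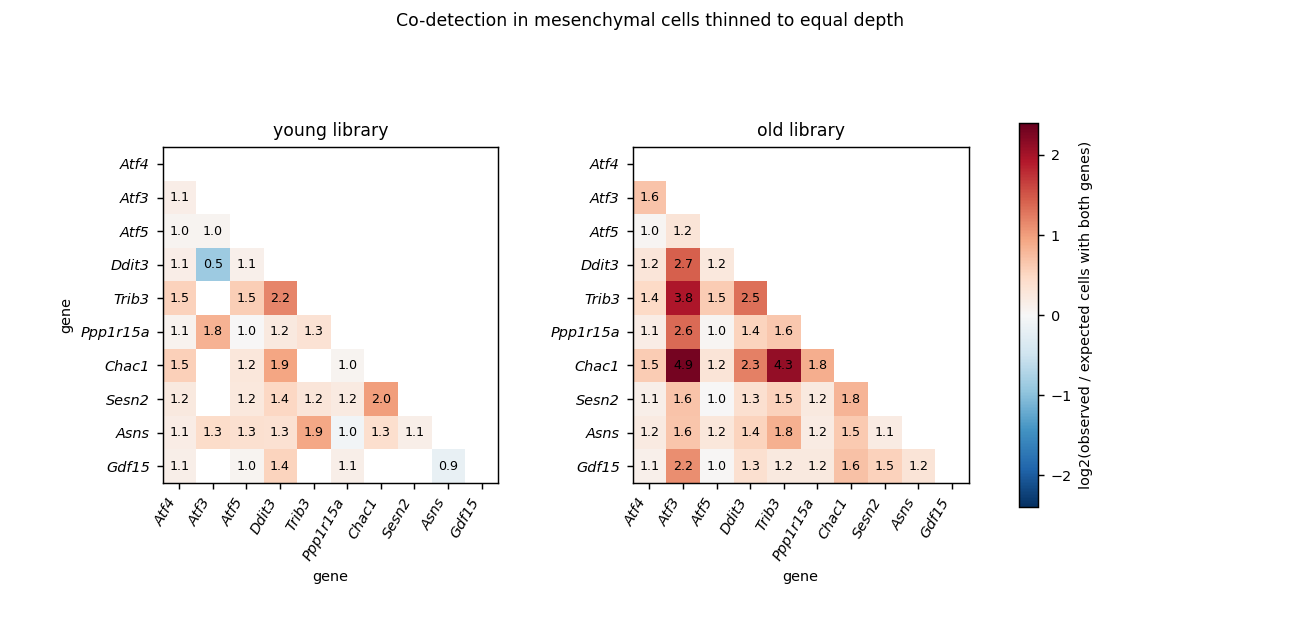
Observed over expected number of mesenchymal cells with both genes of a pair, young library left and old library right, with genes on both axes, the ratio printed in each square and its log2 as colour; pairs with fewer than 5 expected cells are blank. The darkest old squares join Atf3, Trib3 and Chac1 (4.94, 4.32 and 3.85).

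The pairing depended in part on which cells were kept. Without the old cells with at most 2% mitochondrial UMIs, 12 old pairs reached 1.5 and the highest ratio was 2.55, and 5 young pairs reached it. Without the tenth of cells with the most UMIs before thinning, which could hold more doublets, the counts were 11 old and 3 young pairs. With the cells of the highest doublet scores removed they were 19 and 6.

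Few cells carried many of the genes at once. At 3000 UMIs per cell, 5 or more of the 10 genes were detected in 38 young cells (0.336%), where 9.63 were expected had the genes been independent, and in 196 old cells (1.83%), where 41.6 were expected. Cells with 7 or more numbered 0 among young and 23 among old cells, against 0.00927 and 0.157 expected. The same numbers were not counted for other sets of 10 genes. At the other end, 26.9% of young and 21.3% of old cells held none. Variance over mean of the counts per cell, which is 1 for random sampling alone, was larger in the old library for 8 of the 10 genes and smaller for Atf5 and Sesn2. Of the 8, all but Asns also had a higher mean count in the old library, as did Sesn2. For how many of all genes the variance over mean was larger in the old library was not counted. Among the members, it had the following values. It was 1.13 for Atf3 in young and 2.06 in old cells, 1.21 and 1.89 for Gdf15 and 1.18 and 1.57 for Ddit3, but 1.27 and 1.20 for Atf5 and 1.04 and 1.03 for Sesn2.

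**Figure D5:**
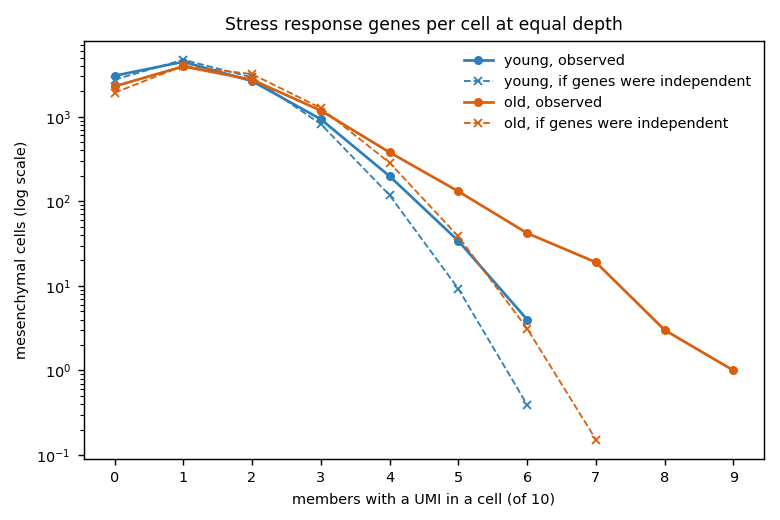
Number of mesenchymal cells (log scale) by how many of the 10 genes had a UMI after thinning to 3000 UMIs, with solid lines for the observed and dashed lines for the number expected were the genes independent. The lines part from 4 genes upward, and the old library extends to 9 genes in 1 cell; counts of 0 and expectations below the axis are not drawn.

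Cells with both Atf3 and Ddit3 made up 1.19% of the thinned old mesenchymal cells (127 cells) and 0.0441% of the young ones (5 cells). In the old ones the other 8 genes were given per 10000 UMIs, beside the 8886 old cells with neither gene. Atf4 stood at 5.59 (4.86 to 6.39) against 1.91, and Ppp1r15a at 2.36 (1.90 to 2.90) against 0.432. Trib3 stood at 0.709 (0.467 to 1.03) against 0.0630, and Chac1 at 0.525 (0.321 to 0.811) against 0.0469. The cells chosen by these 2 factors thus also held more mRNA of Atf4 and of its feedback genes. These values rest on the same thinned counts as the pairs above. How many of all genes were higher in these cells was not counted. In the 178 old cells with Atf3 only and the 1524 with Ddit3 only, Atf4 stood at 3.80 and 2.70. Ppp1r15a stood there at 1.05 and 0.615, and Trib3 at 0.112 and 0.203. Gdf15 stood at 1.63 (1.25 to 2.09) against 0.428, Asns at 1.23 (0.906 to 1.64) against 0.429 and Atf5 at 2.65 (2.16 to 3.22) against 1.55. Sesn2, at 0.341 (0.182 to 0.583) against 0.186, had the least distinct pair of values. The 127 cells had a median of 12821 UMIs before thinning and 1.51% mitochondrial UMIs, against 9441 and 2.30% in the cells with neither, and the part of these in the differences was not tested.

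Cell by cell, no other gene reached the limit set for correlation with a member in both libraries. Of 5110 genes detected in at least 5% of the thinned cells of both libraries, 0 reached a Pearson correlation of 0.15 with any member in both libraries, over 11326 young and 10715 old cells. The nearest was Nupr1 with Trib3, whose lower value was 0.0995. In the young library no pair of members reached 0.15 either, the highest being Atf5 with Asns at 0.102. Ddit3 with Trib3, which were often found together there, had 0.0619. The limit therefore cannot show that no gene followed a member. In the old library alone some correlations were higher, and the following pairs were picked after their values had been seen. Atf3 reached 0.257 with Fosb, an immediate early gene (-0.0125 in the young library), Ddit3 reached 0.209 with Nupr1, a stress-induced chromatin protein gene (0.0816), and Gdf15 reached 0.186 with Cdkn1a.

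Genes around the response were read from 8 lists, by the same 1.5-fold rule against 20% higher and 12.4% lower among all genes in mesenchymal cells. Of 15 genes for eIF2 kinases, eIF2 and its exchange factor eIF2B, 2 were higher, 1 lower, and the median log2 ratio was 0.21. Eif2b3, a subunit of the exchange factor, stood at 10.1 CPM among young and 23.2 CPM among old cells (log2 1.19), and Ppp1r15b, the constitutive counterpart of Ppp1r15a, had a log2 ratio of 0.73. Eif2ak4, which encodes the amino acid sensor GCN2, was lower, at 9.26 and 5.57 CPM (-0.73). Eif2s1, the phosphorylated subunit of eIF2, had a log2 ratio of 0.48.

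Of 20 ATF4 partners and further stress targets, 8 were higher and 5 lower, with a median of 0.40. Ddit4, an mTORC1 inhibitor also induced by low oxygen and glucocorticoids, stood at 32.6 CPM among young and 145 CPM among old cells (log2 2.16). Vegfa stood at 55.3 and 180 CPM (1.70), Ndrg1 at 6.38 and 20.9 CPM (1.71) and Sqstm1, an autophagy receptor, at 85.2 and 183 CPM (1.10). Vegfa and Ndrg1 are also known as genes of the hypoxia response. The 5 lower genes were Fgf21 (-2.33, on 75 UMIs), Avil (-1.01), Jdp2 (-0.88), Eif4ebp1 (-0.78) and Batf3 (-0.76). Of these, Eif4ebp1 had the most molecules, at 408 CPM among young and 238 CPM among old cells.

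The amino acid arm was divided. Of 14 genes for amino acid and one-carbon synthesis, 4 were higher and 3 lower, and the median of 0.13 was the same as that of all genes. Got1, an aspartate aminotransferase, stood at 13.8 and 30.4 CPM (log2 1.14) and Gpt2, an alanine aminotransferase, at 6.34 and 10.4 CPM (0.72). Phgdh, the first enzyme of serine synthesis, was lower, at 97.7 and 58.9 CPM (-0.73), as was Aldh1l2, a mitochondrial folate enzyme, at 16.0 and 9.03 CPM (-0.82). Of 12 amino acid transporters, 2 were higher, 1 lower, and the median was 0.09. Slc7a11, the cystine importer that is also a target of NRF2, stood at 10.3 CPM among young and 94.7 CPM among old cells (3.21), and its partner Slc3a2 at 88.7 and 153 CPM (0.79). Slc38a1, a glutamine transporter, was lower, at 17.1 and 5.41 CPM (-1.66), and Slc36a1 had a log2 ratio of 0.55. Of 20 cytosolic aminoacyl-tRNA synthetases, 3 were higher and 0 lower (median 0.24), and those with the largest ratios were Hars (0.68), Rars (0.61), Farsa (0.60) and Wars (0.50). Chaperones and other genes of the ATF6 and XBP1 arms of the unfolded protein response, 20 in all, included 1 that was higher and 0 lower, with a median of -0.02. That gene was Ern1, which encodes the sensor IRE1, at 4.41 and 8.95 CPM (1.02), while Dnajb9 (0.50), Syvn1 (0.40) and Creld2 (-0.38) stayed within 1.5-fold.

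Of 28 immediate early and dissociation genes, 14 were higher and 1 lower, with a median of 0.56. Summed, they stood at 2524 CPM in young and 4053 CPM in old mesenchymal cells. Nr4a3 stood at 5.34 and 36.0 CPM (log2 2.76), Ier3 at 106 and 625 CPM (2.57), Fosl1 at 18.6 and 85.6 CPM (2.21) and Nr4a1 at 74.5 and 287 CPM (1.95). The 1 lower gene was Fos, at 224 and 135 CPM (-0.74). Of 17 p53 targets, 9 were higher and 2 lower, with a median of 0.60. Cdkn1a, the cell cycle inhibitor p21, stood at 224 and 576 CPM (1.36) and Plk2 at 58.4 and 115 CPM (0.98). Pmaip1 (-1.27), a promoter of cell death, and Perp (-0.99), which acts in cell death and adhesion, were lower. Tnfrsf10b and Trp53inp1 stood in this list and in that of ATF4 partners and targets. Several genes of these 2 lists respond to stimuli that also reach Atf3, Gdf15 and Sesn2. Both lists had medians above that of all genes, as the members did, though each held genes that were lower. Their part in the members' differences was not tested.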

How the data were processed

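The values are the UMI counts deposited by the authors, unnormalized counts of molecules per gene and cell barcode, made with Cell Ranger 3.0.1 per the file headers and mapped to mm10 per the submitters' processing notes. No annotation release, use of strand or cell-calling rule is given in the sources used here. The 10 members and all lists were chosen with earlier results of these data known.

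A minimum of 500 genes and a limit of 10% mitochondrial UMIs per cell left 12755 young and 13711 old cells. A cell entered a class with at least 4 of its markers. Mesenchymal cells could hold at most 2 markers of any other class. Cells of other classes, mesothelial cells apart, with 8 or more mesenchymal markers, and cells with 4 or more markers of 2 other classes, were left out as mixed (38 young, 459 old). A further 618 young and 1043 old cells met no gate. Subsets needed 3 pericyte, 4 cycling or 6 contractile markers. These limits were set after marker distributions had been seen. No cells were removed by a doublet caller in the main analysis. The automatic threshold of Scrublet (scanpy 1.11.5) marked 0 cells, and removing the highest scores (10.2% and 10.97% of cells) was an alternative.

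CPM were computed from UMIs summed over the cells of a class in each library, with exact Poisson intervals, exact conditional Poisson intervals for ratios and Clopper-Pearson intervals for shares (Python 3.11.15, scipy 1.17.1). Levels are not compared between genes. Genes with at least 20 UMIs were compared, and 1.5-fold was the limit for a count. Co-detection used cells thinned to 3000 UMIs, and pairs with at least 5 expected cells. Named genes were the 10 members, up to 4 per list with the largest absolute log2 ratio and at least 100 UMIs, and up to 3 correlated genes per member with r of at least 0.15, of which there were 0. Fos was added as the 1 lower gene of its list, and the 5 lower ATF4 partners and targets were added to theirs. The result of 1 further list is not reported here. The list names Mars1 and Dele1 were matched through RefSeq synonyms. The interval method was tested on simulated counts.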

Additional observations from a re-analysis of the deposited data

How the results depend on the processing

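No paired analysis was possible because there is 1 library per age. Each library is a single preparation, so no replicate could be left out and depth limits only the counting error. Among 100 alternative values for the members' ratios in mesenchymal cells, 62 stayed within the counting interval and 38 moved beyond it. Over the 8 alternatives planned beforehand the log2 ratio ranged from 3.02 to 3.60 for Gdf15, 2.37 to 2.66 for Atf3, 0.72 to 0.85 for Ddit3, 0.51 to 0.82 for Chac1, -0.04 to 0.15 for Asns and -0.22 to 0.00 for Atf5. Median-of-ratios scaling shifted all genes by 0.11, to 15.9% of genes higher and 15.0% lower; the members' median was then 0.45 and the log2 ratio of their sum 0.28. That of the sum was 0.32 as a mean over cells and 0.33 without cycling, pericyte-marker and contractile cells. Splits at 2% mitochondrial UMIs were chosen after seeing the data: without the cells with at most 2% the median was 0.31, the sum 0.19 and the old pairs at 1.5 or more 12; with these cells alone the sum was 0.58. With a limit of 2-fold, 2 members were higher (9.61% of genes). Gates shifted by 1 marker move the minimum and the limit on other classes' markers together. The members higher in mesenchymal cells were then 5 (shifted up, 19.7% of genes) or 3 (shifted down, 19.8% of genes), and 0 in Schwann cells (up). Pairs at 1.5 or more were 1 in the young library at 1000 UMIs, and 3 young and 11 old without the tenth of cells with the most UMIs. The causes were not tested, apart from the shift that the scaling itself makes.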
